A study of Rattus norvegicus with 9 samples.

Results

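The table of transcript counts held 3251 rows for predicted long non-coding RNA (lncRNA), transcripts that were assembled from the reads and that have no entry in the rat annotation. Their identifiers begin with MSTRG and end in a dot and a transcript number, so that the identifier without its last part names a locus. Of the 2408 loci named in this way, 2035 had exactly 1 row and the other 373 shared 1216 rows. The 2035 single-row loci are described here, beside the rows of the several-row loci and 40808 annotated transcripts. In all the table had 44059 rows.

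Long non-coding RNA are long transcripts judged to lack the potential to code for protein. They can act in the nucleus on chromatin, transcription and splicing or in the cytoplasm on the stability and translation of other RNA. The brain transcribes a large number of them, many in particular neurons or glia, and many at low levels. A transcript assembled from reads is a reconstruction, so its ends, exons and function are known only as far as the reads show them, and no function is known for any locus described below.

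The samples were cerebral cortex from young adult male Sprague-Dawley rats on the day after transient middle cerebral artery occlusion, a filament model of ischemic stroke followed by reperfusion. There were 3 groups with 3 rats each and 1 total RNA library per rat. Sham rats had the vessels exposed without occlusion and received saline, I/R rats received saline and underwent ischemia and reperfusion, and I/R + DEX rats, called treated rats below, received dexmedetomidine, an α2-adrenoceptor agonist sedative, by intraperitoneal injection. The study's methods place the injection before the occlusion, while its summary also names treatment after reperfusion, so the timing is not settled here. The labels give the groups only by the letters S, IR and D, which were read as these 3 groups. The tissue came from the cortex at the infarct site, and which cortex was taken from Sham rats is not stated in the sources used here. Cortex holds neurons, glia, vessels and any blood cells that entered it. In such bulk tissue, fewer cells of a type and less RNA per cell cannot be told apart. The cell type markers of the cortex were not analysed here, because none of the 40808 annotated identifiers could be paired with a gene symbol.

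Libraries held from 21691473 to 36039743 counts, fewest in Sham 2 and most in I/R + DEX 2, and all 3 Sham libraries were smaller than the other 6. A level below is given in counts per 1000000 counts of the library (CPM) after trimmed mean of M-values (TMM) scaling over all 9 libraries. CPM is not divided by transcript length, so levels are not a measure of how many molecules 1 locus makes relative to another. Changes were compared between libraries for the same locus. Where loci are ranked by level or called abundant below, this refers to CPM alone. A count of 0 still allows up to 3 counts, which is 0.0809 to 0.133 CPM in these libraries, and such limits cover counting error only.

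The identifiers do not say that each of these loci makes a single transcript. The last part was 1 in 1820 of the 2035 loci (89.4%) and above 1 in 215 (10.6%), among them 119 that end in 2 and 1 that ends in 20. At these 215 loci the assembly had numbered further transcripts that have no row among the predicted lncRNA. Their median level was 24.2 CPM against 7.31 CPM at loci ending in 1, not corrected for transcript length. They held 24.3% of the single-row counts in Sham, 29.3% in I/R and 30.7% in treated rats. In I/R against Sham their shares of called loci lay close to those of the rest. There 38 of 208 tested were higher (18.3%) and 91 lower (43.8%), against 270 (15.9%) and 672 (39.5%) of 1703 for loci ending in 1. In treated rats against Sham they were called more often, with 8.65% higher and 30.3% lower, against 4.91% and 23.5%. Both kinds have exactly 1 row and were kept, and the loci are called single-row loci.

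Single-row loci were measured at low to moderate levels and in nearly every rat. Their median level over the 9 libraries was 8.07 CPM, with quartiles at 2.04 and 27.8 CPM and 5% to 95% of the loci between 0.302 and 107 CPM. In all, 1726 loci reached 1 CPM, 936 reached 10 CPM and 112 reached 100 CPM, whereas 57 stayed under 0.1 CPM. More than 3 counts were found in all 9 libraries at 1821 loci (89.5%). The same held for 607 of the 1216 several-row transcripts (49.9%) and for 50.9% of annotated transcripts. The annotated share is not on a like footing. Predicted rows were assembled from reads and all held counts, whereas 6697 of the 40808 annotated transcripts had no count. At 34 single-row loci no library passed 3 counts.

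The number of detected loci was close in the 3 groups. Loci above 3 counts numbered 1922 ± 8.62 in Sham, 1942 ± 10.4 in I/R and 1936 ± 20.6 in treated rats (mean ± SD, n = 3 each). After each library was thinned to the smallest total, the numbers were 1911 ± 4.73, 1919 ± 12.7 and 1911 ± 26.1. At equal depth the libraries of the 3 groups overlapped.

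Counts of single-row loci were steady among Sham rats and less so after ischemia. Over the loci with a mean of at least 1 CPM, the median coefficient of variation between rats of a group was 12% in Sham, 23.8% in I/R and 34.6% in treated rats. Transcripts of several-row loci stood at 33.4%, 54.7% and 59.5%, and annotated transcripts at 11.9%, 17.2% and 23.9%. Over all rows, a jump from 0 counts in 1 rat to at least 100 in another rat of the same group was found at 12 single-row loci (0.59%), at 303 several-row transcripts (24.9%) and at 376 annotated transcripts (0.921%). Among rows with a mean of at least 1 CPM the shares were 0.579%, 29.1% and 1.72%. One of the 12 single-row loci was MSTRG.9487.1, with 1948, 1824 and 0 counts in Sham 1, 2 and 3, 4381, 4856 and 4463 in I/R and 2672, 3212 and 4237 in I/R + DEX. It was chosen for its high counts after the values were seen. How reads were divided among overlapping transcripts is not stated in the sources used here, and its part in these jumps was not tested.

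The share of all counts that fell on single-row loci was lower in both ischemic groups than in Sham. It was 7.66%, 8.37% and 8.12% in Sham 1, 2 and 3, then 4.86%, 4.10% and 5.16% in I/R 1, 2 and 3, and 5.08%, 4.58% and 3.50% in I/R + DEX 1, 2 and 3. No ischemic library reached the lowest Sham library, whereas the I/R and I/R + DEX libraries overlapped. The group means were 8.05 ± 0.358%, 4.71 ± 0.544% and 4.39 ± 0.809% (SD, n = 3). No p is given, since the loci were chosen with results of these data known. The several-row loci moved alongside, from 4.11 ± 0.196% to 2.25 ± 0.402% and 2.05 ± 0.564%, so that single-row loci held 66.2 ± 0.127%, 67.8 ± 1.51% and 68.4 ± 2.53% of the predicted lncRNA counts.

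**Figure D1:**
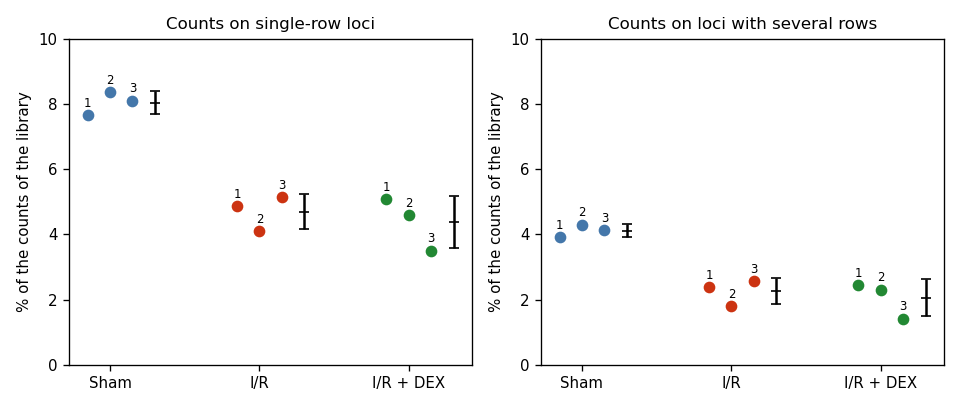
Percent of each library's counts on single-row loci (left) and on loci with several predicted transcripts (right), 1 point per rat numbered by replicate, with the group mean and SD (n = 3) as a bar. Sham libraries lie between 7.66% and 8.37% in the left panel and the 6 ischemic libraries between 3.50% and 5.16%, with I/R + DEX 3 lowest in both panels.

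The 10 most abundant single-row loci held 12.7 ± 0.155% of the single-row counts in Sham, 16.8 ± 4.05% in I/R and 19.9 ± 8.69% in treated rats (SD, n = 3), and the first of them, MSTRG.18555.2, moved the other way from the rest. Its level was 2138, 2171 and 2201 CPM in Sham 1, 2 and 3, 3792, 7475 and 4678 CPM in I/R, and 2358, 6299 and 10505 CPM in I/R + DEX. All I/R libraries were above Sham, and I/R + DEX spread over the whole range, with its first rat near Sham and I/R + DEX 3 above every I/R rat. MSTRG.18555.2 rose in I/R against Sham, with a log2 fold change of 1.28 (SE 0.275, adjusted p = 0.0122 by the quasi-likelihood test of edgeR, adjusted over all rows tested after Benjamini and Hochberg). For treated against untreated rats its log2 fold change was 0.28 (SE 0.57), and without I/R + DEX 3 it was -0.30. The adjusted call in I/R against Sham was lost when all 9 libraries entered 1 fit, at a log2 fold change of 1.27 (unadjusted p = 0.0341 in edgeR).

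The counts of MSTRG.18555.2 followed those of an annotated transcript. In each of the 9 libraries they came to between 8.42% and 10.7% of the counts of ENSRNOT00000050156, the most abundant row of the table. That transcript took 2.04% to 2.19% of the Sham libraries, and its share reached 7.55% for I/R 2 and 11% for I/R + DEX 3. Within single-row loci MSTRG.18555.2 alone held 2.79 ± 0.085% of the counts in Sham, 11.7 ± 5.18% in I/R and 14.7 ± 10.9% in treated rats (SD, n = 3), and 26.4% in I/R + DEX 3. Whether reads were shared between both rows was not tested.

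The next loci in abundance were highest in Sham. MSTRG.5610.2 stood at 1006, 1131 and 1421 CPM in Sham, 193, 132 and 184 CPM in I/R and 214, 171 and 84.6 CPM in I/R + DEX. MSTRG.13941.1 stood at 1029, 1155 and 966 CPM in Sham, 103, 59.1 and 131 CPM in I/R and 300, 107 and 50.3 CPM in I/R + DEX. Both fell in I/R against Sham without overlap of the groups, by 2.83 (SE 0.21, adjusted p = 0.000598) and 3.45 (SE 0.30, adjusted p = 0.000917) on the log2 scale in edgeR's test. MSTRG.5615.3, MSTRG.9497.1 and MSTRG.9291.1 fell as well, with log2 fold changes of -2.71 (SE 0.19), -2.87 (SE 0.27) and -1.79 (SE 0.26).

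For 4 further loci of the 10 the loss was smaller or not past the test. MSTRG.11540.1 (808 ± 43.5 CPM in Sham, 575 ± 83.7 in I/R, 503 ± 168 in I/R + DEX), MSTRG.20114.2 (607 ± 14.1, 401 ± 111 and 337 ± 111) and MSTRG.8243.1 (674 ± 15, 271 ± 127 and 268 ± 161) passed the adjusted test in I/R against Sham. That call did not hold up when libraries were left out: MSTRG.11540.1 lost it whichever Sham library was left out, at log2 fold changes of -0.56 to -0.49, and MSTRG.20114.2 and MSTRG.8243.1 lost it whichever Sham library was left out and also without I/R 1, at -0.65 to -0.61 and -1.41 to -1.34. These 3 calls were also lost when all 9 libraries entered 1 fit. MSTRG.17002.1 was not called, with 546, 547 and 522 CPM in Sham, 274, 83.3 and 463 CPM in I/R and 467, 510 and 64.3 CPM in I/R + DEX. Here I/R 2 and I/R + DEX 3 lay far below the other rats of their groups.

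**Figure D2:**
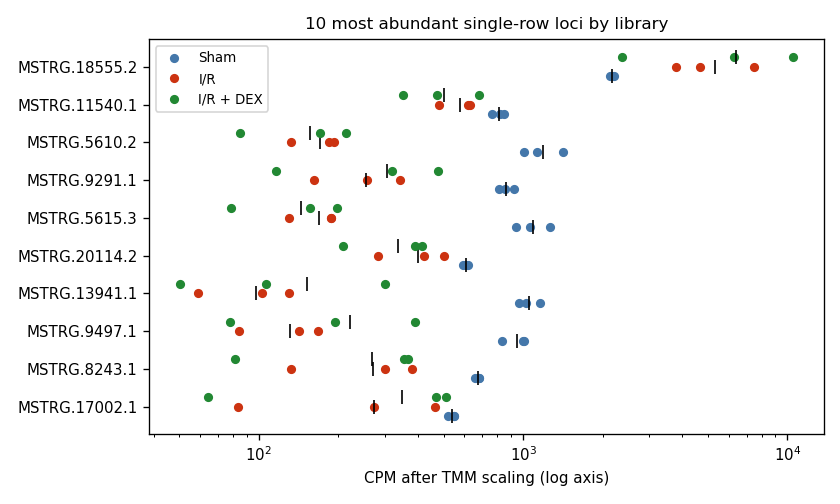
Level of the 10 most abundant single-row loci in CPM after TMM scaling (log axis), 1 point per rat coloured by group and a vertical mark at each group mean. Sham points lie to the right of both ischemic groups at 9 loci and to the left at MSTRG.18555.2, whose I/R + DEX points run from 2358 to 10505 CPM.

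I/R against Sham asks how cortical lncRNA differ after stroke, and single-row loci were mostly lower. After removal of 124 loci with low counts, 1911 were tested. At an adjusted p under 0.05 in edgeR's test, 308 loci (16.1%) were higher and 763 (39.9%) lower in I/R, whereas over all 25777 rows tested 22.4% were higher and 20.4% lower. At the cutoff the study used, which takes an unadjusted p under 0.05 and asks for log2 fold changes beyond 0.8, 268 (14.0%) were higher and 712 (37.3%) lower, beside 18.7% and 16.6% of all rows. The median log2 fold change was -0.51 over the single-row loci and 0.03 over all rows, and 1247 loci (65.3%) had a negative value. These p-values measure the spread between the rats of these groups, and the loci are not independent of each other, as shown further on.

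The excess of lower loci was found in both kinds of predicted lncRNA. Of 961 several-row transcripts tested, 54 were higher and 279 lower, with a median log2 fold change of -0.90, and of the 22905 annotated transcripts tested 5411 were higher and 4210 lower, with a median of 0.08. When counts were summed over each locus before the fit, 54 of 370 several-row loci were higher and 188 (50.8%) lower, beside 308 and 776 of the 1911 single-row loci. The difference between these classes was not tested. Leaving out 1 library at a time gave 220 to 314 single-row loci higher and 601 to 792 lower. In both directions together these were 43.1% to 57.5% of the tested loci, beside 30% to 44.2% of all rows.

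Lower calls were more frequent among the more abundant loci, as they were among all rows. They made up 27 of 189 tested loci under 1 CPM (14.3%), 250 of 786 from 1 to 10 CPM (31.8%), 412 of 824 from 10 to 100 CPM (50%) and 74 of 112 at 100 CPM and over (66.1%). Over all rows tested the shares in the same bins were 10.4%, 14.6%, 25.5% and 38.9%. Higher calls made up 8.99%, 16.9%, 17.5% and 12.5% of the single-row loci and 12.2%, 20.3%, 27.2% and 26% of all rows. The median log2 fold change was -0.46, -0.31, -0.59 and -1.42 for single-row loci and 0.05, 0.08, 0.02 and -0.19 for all rows.

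**Figure D3:**
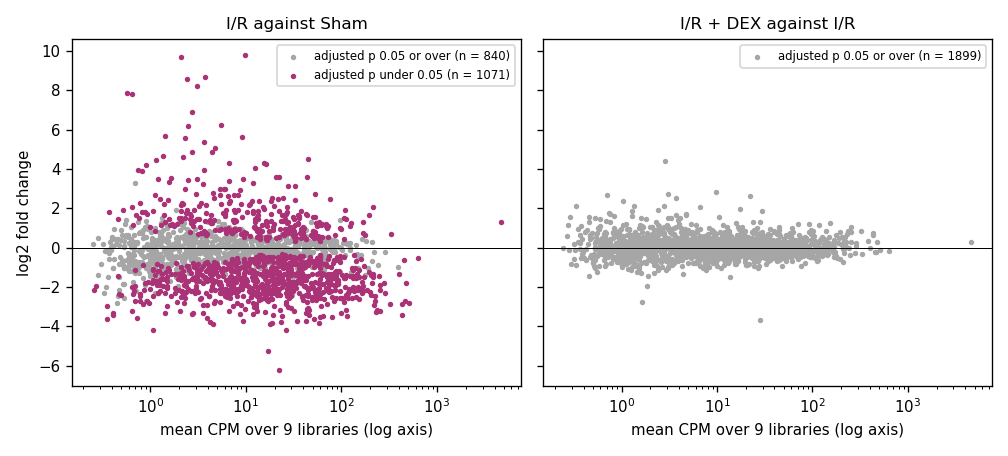
Log2 fold change of each tested single-row locus against its mean CPM over the 9 libraries (log axis) for I/R against Sham (left, 1911 loci) and I/R + DEX against I/R (right, 1899 loci), with loci at an adjusted p under 0.05 in purple. In the left panel 763 purple points lie below 0 and 308 above, and the right panel has none.

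Among called loci that did not overlap between the groups and reached a mean of 1 CPM over the 6 libraries, the largest decreases were close to complete. MSTRG.6968.1 had 60.2, 70.7 and 52.0 CPM in Sham 1, 2 and 3, 1.29, 0.272 and 0.871 CPM in I/R, and 12.7, 1.82 and 0.679 CPM in I/R + DEX. Its mean was 75-fold below that of Sham, and it fell by 6.24 (SE 0.52, adjusted p = 0.000843 in edgeR's test) on the log2 scale. MSTRG.10996.1 had 42.1, 43.4 and 55.6 CPM in Sham, 1.08, 0.998 and 1.71 CPM in I/R and 4.40, 1.26 and 1.66 CPM in I/R + DEX. Its mean in I/R was 37.2-fold lower, and it fell by 5.24 (SE 0.27, adjusted p = 0.000361). Both loci kept all 6 ischemic libraries far below Sham, and I/R + DEX 1 was the highest ischemic rat at each.

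MSTRG.15075.1, MSTRG.6977.1 and MSTRG.12889.1 completed the 5 largest decreases of this kind. MSTRG.15075.1 went from 68.1 ± 2.44 CPM in Sham to 3.74 ± 1.96 CPM in I/R and 7.31 ± 5.5 CPM in treated rats. MSTRG.12889.1 went from 45.5 ± 3.57 to 3.07 ± 1.55 and 5.25 ± 2.88 CPM. MSTRG.6977.1 had fewer counts, with 73, 93 and 41 in Sham, 4, 6 and 5 in I/R and 27, 9 and 0 in I/R + DEX. The fitted log2 fold changes were -4.21 (SE 0.40), -3.91 (SE 0.41) and -4.19 (SE 0.53) for MSTRG.15075.1, MSTRG.12889.1 and MSTRG.6977.1. Over all 763 lower loci the median was -1.68, and 281 loci passed -2 and 53 passed -3.

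By the same conditions, the largest increases were at loci with few or no counts in Sham. MSTRG.5406.1 had no count in any Sham library, 96, 167 and 107 counts in I/R 1, 2 and 3, and 2415, 37 and 55 counts in I/R + DEX. MSTRG.10468.1 had none in Sham either, with 147, 40 and 174 counts in I/R and 35, 213 and 34 in I/R + DEX. MSTRG.18175.1 had 0, 0 and 3 counts in Sham, 167, 205 and 130 in I/R and 59, 67 and 181 in I/R + DEX. All ischemic libraries were thus above all Sham libraries. Set against a floor of 3 counts per Sham library, the means in I/R were at least 31.8-fold, 30.5-fold and 42.8-fold higher. The adjusted call of MSTRG.5406.1 was lost when all 9 libraries entered 1 fit (unadjusted p = 0.0186 in edgeR).

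Likewise MSTRG.605.1, with 3, 2 and 0 counts in Sham, 195, 190 and 130 in I/R and 26, 70 and 129 in I/R + DEX, was at least 43.7-fold higher in I/R. MSTRG.6773.1 had 6, 3 and 0 counts in Sham, 461, 297 and 191 in I/R and 106, 326 and 278 in I/R + DEX, a log2 fold change of 6.25 (SE 0.84, adjusted p = 0.00259 in edgeR's test). In all, 14 single-row loci had more than 3 counts in each of the 6 ischemic libraries and at most 3 in each Sham library. These were 0.688% of single-row loci, beside 311 annotated transcripts (0.762%) and 5 several-row transcripts (0.411%). By the same rule 0 single-row loci were found in Sham alone, beside 46 annotated (0.113%) and 3 several-row transcripts (0.247%). The annotated shares are not on a like footing. Of the 40808 annotated transcripts 10827 passed 3 counts in no library, beside 34 of the 2035 single-row loci. Over the 308 higher loci the median log2 fold change was 1.37, also with the 12 loci whose Sham libraries are at the floor set to their bound, and 86 passed 2 and 43 passed 3.

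Against these, the 4 steadiest loci of at least 10 CPM varied by a coefficient of 0.063 to 0.079 over all 9 libraries. MSTRG.20203.1 stood at 67.7, 69.7 and 66.6 CPM in Sham, 69.5, 68.1 and 68.7 CPM in I/R and 69.7, 58.4 and 60.3 CPM in I/R + DEX. MSTRG.353.1 had group means of 22.9 ± 1.5, 21.8 ± 1.88 and 22.5 ± 2.22 CPM. MSTRG.15741.1 had 49.6 ± 2.51, 56.1 ± 1.10 and 48.1 ± 1.07 CPM, and MSTRG.11666.8 had 62.2 ± 5.18, 60.3 ± 4.59 and 66.3 ± 4.72 CPM. They were chosen for this evenness, so their levels are a description.

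I/R + DEX against I/R asks whether lncRNA differ in treated stroke, and no single-row locus passed the adjusted test. Among 1899 loci tested by edgeR, 0 were higher and 0 lower, as for all 25860 rows (0 in both directions), and the smallest adjusted p of a single-row locus was 0.987. At an unadjusted p under 0.05, 116 of the 1899 loci passed, 12 higher and 104 lower. Of all 25860 rows 997 passed, 496 higher and 501 lower. DESeq2 called 8 at its adjusted p (0.421%), 1 higher and 7 lower, beside 85 of all rows (0.329%), and limma-voom called 0. At the cutoff of the study 8 loci (0.421%) were higher and 31 (1.63%) lower, beside 1.16% and 1.19% of all rows, and the median log2 fold change was -0.03 beside 0.01 over all rows. The treated and untreated rats did not overlap at 33 loci (1.74%) that were higher with treatment and 190 (10%) that were lower, beside 3.8% and 5.19% of all rows.

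These counts depended on single rats. Without I/R + DEX 3 the cutoff gave 86 loci higher (4.48%) and 92 lower (4.79%), and the share of all rows moved as well, to 3.2% and 4.1%. Without I/R 3 it gave 25 higher (1.31%) and 39 lower (2.04%), beside 1.87% and 1.65% of all rows. Without I/R 1 it gave 10 higher (0.521%) and 9 lower (0.469%), beside 1% and 0.742% of all rows. Without I/R + DEX 1, 12 were higher (0.627%) and 27 lower (1.41%), beside 1.01% and 1.11% of all rows. In each of these fits no locus passed the adjusted test of edgeR. The median log2 fold change moved between -0.17 without I/R + DEX 1 and 0.06 without I/R + DEX 3.

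**Figure D4:**
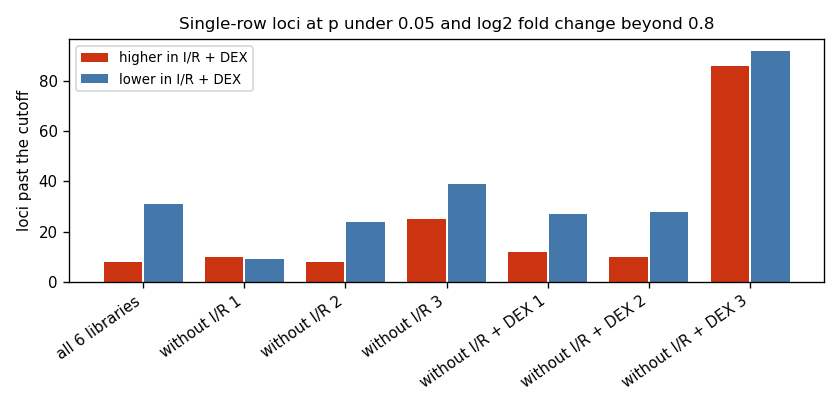
Number of single-row loci higher (red) and lower (blue) in I/R + DEX than I/R at an unadjusted p under 0.05 and a log2 fold change beyond 0.8, with all 6 libraries and with each library left out in turn. The bars stand at 8 and 31 with all libraries and at 86 and 92 without I/R + DEX 3.

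The 4 loci that were higher in I/R + DEX with the smallest unadjusted p had different histories in ischemia. MSTRG.5618.1 was close to absent in Sham with 0, 0 and 4 counts, then 79, 47 and 37 in I/R and 282, 284 and 89 in I/R + DEX. MSTRG.9362.1 stood at 4.56, 3.55 and 6.35 CPM in Sham, 20.9, 13.8 and 13.6 CPM in I/R and 29.1, 27.7 and 43.8 CPM in I/R + DEX. Both were higher in I/R than in Sham at an adjusted p of 0.0088 and 0.00529 in edgeR's test, and their treated rats lay above all untreated ones, with log2 fold changes of 2.11 (SE 0.49, unadjusted p = 0.00456) and 1.07 (SE 0.27, unadjusted p = 0.00671).

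MSTRG.5922.1 was lower in I/R than in Sham and lay between them in treated rats, with 6.38, 11.5 and 11.3 CPM in Sham, 3.05, 3.45 and 3 CPM in I/R and 6.71, 5.76 and 4.11 CPM in I/R + DEX. MSTRG.6501.1 had 2.28, 0.755 and 0.676 CPM in Sham, 0.917, 1.51 and 1.26 CPM in I/R and 2.28, 2.71 and 2.61 CPM in I/R + DEX. In each locus the treated rats were above the untreated rats. MSTRG.5922.1 no longer passed the cutoff without I/R 1, I/R 3, I/R + DEX 1 or I/R + DEX 2, at log2 fold changes of 0.65 to 0.79, whereas MSTRG.5618.1, MSTRG.9362.1 and MSTRG.6501.1 passed it whichever library was left out. MSTRG.6501.1 lost it when all 9 libraries entered 1 fit (unadjusted p = 0.0617 in edgeR) and after thinning (unadjusted p = 0.051), and MSTRG.9362.1 lost it with limma-voom, at a log2 fold change of 0.75.

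Among the lowered loci MSTRG.3146.1 came first. It stood at 1.53, 10.2 and 3.75 CPM in Sham, 22.2, 28.5 and 29.6 CPM in I/R and 5.51, 9.82 and 12.8 CPM in I/R + DEX. The log2 fold change was 2.36 (SE 0.65, adjusted p = 0.028 in edgeR's test) in I/R against Sham and -1.5 (SE 0.33, unadjusted p = 0.00334, adjusted p = 0.987) for treated against untreated rats. Of the 3 treated rats 2 lay within the range of Sham, and they did not overlap with the untreated rats.

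MSTRG.8993.1 and MSTRG.15440.3 were lowest in treated rats of all groups. MSTRG.8993.1 had 2.89, 2.09 and 2.20 CPM in Sham, 1.70, 1.51 and 1.80 CPM in I/R and 0.708, 0.647 and 0.679 CPM in I/R + DEX. MSTRG.15440.3 had 7.34, 10.9 and 8.69 CPM in Sham, 6.96, 7.04 and 7.39 CPM in I/R and 3.54, 4.21 and 3.39 CPM in I/R + DEX. Their log2 fold changes against I/R were -1.29 (SE 0.29) and -0.93 (SE 0.21), and both were lower than Sham at adjusted p-values of 0.0126 and 0.0174 in edgeR's test. MSTRG.156.1, at 6.35 ± 1.39, 10.1 ± 1.75 and 4.96 ± 0.79 CPM in the 3 groups in the same order, had a log2 fold change of -1.02 (SE 0.24). These 3 loci and MSTRG.3146.1 passed the cutoff whichever library was left out.

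The study lists lncRNA that it found reversed by dexmedetomidine, which it chose on these same samples, so the lists are not independent evidence of direction. Of 43 predicted lncRNA listed as raised by ischemia and lowered with treatment, 16 were single-row loci. In edgeR's fit 15 of the 16 passed the cutoff as higher in I/R and 14 the adjusted test, whereas between treated and untreated rats 11 passed the cutoff and 0 the adjusted test. Of 51 in the opposite list, 12 were single-row loci, and 8 of them were tested in I/R against Sham and passed as lower. Between treated and untreated rats 7 were tested, of which 1 passed the cutoff and 0 the adjusted test. The single-row loci of this list that were not tested did not pass the filter, which asks for enough counts in enough libraries.

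Examples from these lists show how sizes and calls changed when 1 library was left out. MSTRG.4572.1 had 327, 247 and 318 counts in Sham, 2070, 1523 and 1321 in I/R and 803, 1094 and 355 in I/R + DEX, and MSTRG.7206.1 had 152, 98 and 131 counts in Sham, 514, 440 and 348 in I/R and 89, 220 and 225 in I/R + DEX. In both the treated rats lay below the untreated ones. MSTRG.319.1 had 88, 76 and 39 counts in Sham, 10, 7 and 10 in I/R and 507, 21 and 16 in I/R + DEX, so that its log2 fold change of 4.41 (SE 1.48) came to 1.15 without I/R + DEX 1. It still passed the cutoff without I/R + DEX 1. It no longer passed when any I/R library was left out, although its log2 fold change changed little, at 4.29 to 4.53. MSTRG.7206.1 lost it without I/R 1 or I/R 2, at -1.07 and -1.10, and MSTRG.4572.1 lost it without I/R 1, I/R 2, I/R + DEX 1 or I/R + DEX 3, at -1.09 to -0.73.

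I/R + DEX against Sham shares its libraries with both comparisons above, and its values are given beside theirs without a count of overlap. Of 1898 loci tested, 101 (5.32%) were higher and 460 (24.2%) lower at an adjusted p under 0.05 in edgeR's test, beside 11.7% and 8.77% of all 25283 rows. At the cutoff of the study 167 (8.8%) were higher and 641 (33.8%) lower, beside 14.3% and 11.9% of all rows. The median log2 fold change was -0.52 over single-row loci and 0.02 over all rows. The adjusted counts fell to 17 higher and 87 lower without Sham 1, 17 and 62 without Sham 2, 18 and 76 without Sham 3, and 61 and 177 without I/R + DEX 2. In both directions together these were 5.39%, 4.1%, 4.86% and 12.4% of the tested loci, against 29.6% with no library left out. Calls over all rows fell as well, from 20.4% to 3.5%, 2.97%, 3.36% and 8.8%. The cutoff still gave 128 to 185 higher and 534 to 710 lower over all fits that left out 1 library, beside 12% to 15.4% and 9.6% to 14% of all rows.

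Among called loci of at least 1 CPM whose groups did not overlap, the largest decreases in this comparison were at MSTRG.10996.1, with a log2 fold change of -4.28 (SE 0.52, adjusted p = 0.0075 in edgeR's test), and at MSTRG.8858.1 and MSTRG.8860.1. MSTRG.8858.1 stood at 148, 131 and 130 CPM in Sham, 9.20, 3.87 and 20.4 CPM in I/R and 14.9, 10.6 and 2 CPM in I/R + DEX. MSTRG.8860.1 stood at 293, 307 and 274 CPM in Sham, 18.1, 12 and 50.3 CPM in I/R and 36.6, 24.9 and 7.98 CPM in I/R + DEX. The order of the rats was the same at both, with I/R 3 highest and I/R + DEX 3 lowest among ischemic rats. They fell by 3.91 (SE 0.69, adjusted p = 0.0159) and 3.68 (SE 0.54, adjusted p = 0.0107), and MSTRG.8858.1 lost the adjusted call whichever Sham library was left out and without I/R + DEX 2 (-4.02 to -3.86), as MSTRG.8860.1 did without Sham 2 (-3.64).

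By the same conditions, the largest increases were at MSTRG.10468.1, described above, MSTRG.5618.1 and MSTRG.4692.2. MSTRG.4692.2 had 1, 2 and 0 counts in Sham, 91, 69 and 51 in I/R and 375, 58 and 41 in I/R + DEX. Against a floor of 3 counts per Sham library its mean was at least 42.8-fold higher in I/R + DEX and at least 17.8-fold higher in I/R, and MSTRG.10468.1 was at least 24.9-fold higher in I/R + DEX. MSTRG.5406.1, with a mean at least 226-fold higher than the floor in treated rats, was not called (adjusted p = 0.0817 in edgeR's test), and 2415 of its counts came from I/R + DEX 1. The first treated rat also carried most of the counts of MSTRG.4692.2. In edgeR's fit the adjusted call was lost whichever Sham library was left out for MSTRG.10468.1 and MSTRG.4692.2 and without Sham 1 or Sham 2 for MSTRG.5618.1, at log2 fold changes of 9.36 to 9.43, 6.21 to 7.80 and 6.40 to 6.50. At MSTRG.13941.1 and MSTRG.9497.1 the adjusted decrease was lost whichever Sham library was left out and without I/R + DEX 2, at -2.87 to -2.60 and -2.21 to -2.03.

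Rats of the same group stood apart from each other in the same order at most of the loci that were lower in I/R. Among the 763 lower loci the lowest I/R library was I/R 2 at 609 (79.8%) and the highest was I/R 3 at 537 (70.4%). In treated rats, which did not enter the choice of these loci, the lowest library was I/R + DEX 3 at 647 (84.8%) and the highest was I/R + DEX 1 at 550 (72.1%). In Sham the lowest library was Sham 1 at 375 (49.1%). The median log2 difference from the Sham mean was -1.57, -2.12 and -1.28 in I/R 1, 2 and 3 and -1.05, -1.31 and -2.30 in I/R + DEX 1, 2 and 3. Over all 1911 tested loci, these 763 among them, the same order was less frequent. There I/R 2 was lowest at 53.5% and I/R 3 highest at 47.6%, and I/R + DEX 3 was lowest at 57% and I/R + DEX 1 highest at 47.6%.

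The 308 loci that were higher in I/R had the mirrored order. Their median difference from Sham was 1.41, 1.48 and 1.13 in I/R 1, 2 and 3 and 0.63, 0.86 and 1.37 in I/R + DEX 1, 2 and 3. I/R + DEX 3 was the highest treated library at 202 of these loci (65.6%) and I/R + DEX 1 the lowest at 180 (58.4%). I/R + DEX 3 thus lay within or beyond the range of the untreated rats at both sets, and I/R + DEX 1 was nearest to Sham. In the same rats MSTRG.18555.2, the most abundant locus, was highest and lowest of the treated group. Infarct size per library was not analysed here, and its part in this order was not tested.

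**Figure D5:**
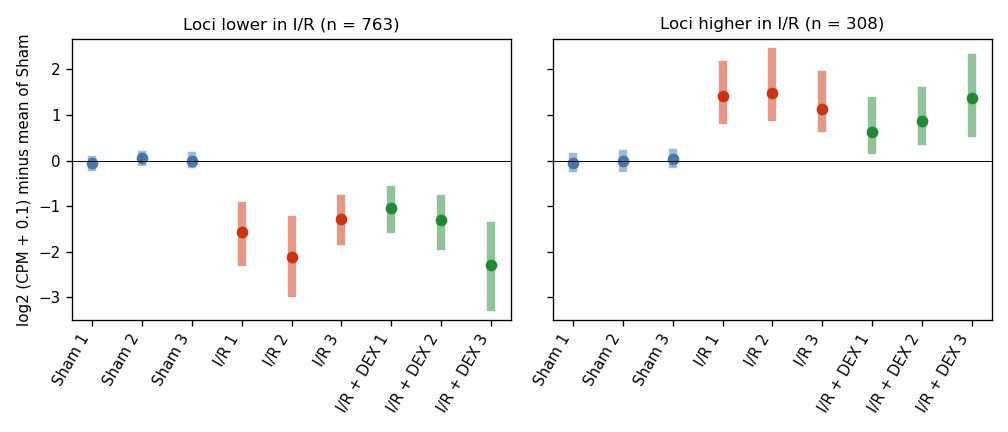
Log2 difference in level from the Sham mean, on the log2(CPM + 0.1) scale, for the 763 loci lower in I/R (left) and the 308 loci higher in I/R (right) in each library, with points at the median over loci and bars over the quartiles. The treated rats run from -1.05 to -2.30 in the left panel and from 0.63 to 1.37 in the right panel.

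A few loci had most of their counts in a single rat. A rule set after the values were seen asked for at least 50 counts and at least 5 times the CPM of every other library. It was met by 17 of the 2035 single-row loci. Of these 14 had their peak in I/R + DEX 1, 2 in Sham 3 and 1 in Sham 2. Of the 1216 several-row transcripts 94 met the same rule, with 5 to 17 in each of the 9 libraries. The rule was not applied to annotated transcripts, so whether peaks in I/R + DEX 1 are particular to single-row loci was not tested.

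The peaks in I/R + DEX 1 were at loci that were low in Sham. MSTRG.4277.1 had 687 counts in I/R + DEX 1 and at most 4 in every other library. MSTRG.17174.1 had 883 counts there, none in Sham, 58, 77 and 37 in I/R and 11 and 32 in the other treated rats, and MSTRG.4919.1 had 765 there, none in Sham, 50, 27 and 49 in I/R and 15 and 8 in the others. Both were above Sham in every ischemic rat. MSTRG.17167.1, with 39, 57 and 77 counts in Sham, 117, 103 and 78 in I/R and 771, 59 and 55 in I/R + DEX, was the only one of the 14 with more than 5 counts in each Sham library. MSTRG.8234.1, which had 83, 12 and 6 counts in I/R + DEX and at most 3 elsewhere, was the only locus above 3 counts in all treated rats and in no other. Of the 14 loci that were above 3 counts in all ischemic rats and in no Sham rat, MSTRG.5406.1, MSTRG.16273.2, MSTRG.16279.1, MSTRG.17174.1 and MSTRG.4919.1 were among these peaks.

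Loci with neighbouring numbers tended to move together. StringTie numbers loci as it assembles them, and the table holds no positions, so a number is only a hint of nearness on a chromosome. For pairs of single-row loci with consecutive numbers, the log2 fold changes of I/R against Sham correlated across loci with r = 0.703 (333 pairs, Spearman rho 0.794). At a number gap of 2 the correlation was 0.532 (283 pairs), at 5 it was 0.346 (245 pairs), at 10 it was 0.248 (213 pairs), at 50 it was -0.0428 (189 pairs) and at 100 it was 0.137 (173 pairs). Of 154 consecutive pairs in which both loci were called, 151 had the same sign (98.1%), beside 39 of 63 (61.9%) at a gap of 50 and 38 of 58 (65.5%) at a gap of 100. All pairs share the same 6 libraries, and loci are not independent replicates.

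The same held for I/R + DEX against I/R, where consecutive pairs correlated with r = 0.507 (327 pairs) and pairs at gaps of 50 and 100 with r = -0.0784 (185 pairs) and 0.103 (174 pairs). Among named loci with near but not consecutive numbers, MSTRG.8858.1 and MSTRG.8860.1, and MSTRG.5610.2 and MSTRG.5615.3, had nearly parallel levels in the 9 libraries. MSTRG.5618.1, also near in number, went the other way from MSTRG.5615.3. Its log2 fold change was 4.87 in I/R against Sham and 2.11 for treated against untreated rats, beside -2.71 and -0.22 at MSTRG.5615.3. Beside MSTRG.4572.1, the listed locus MSTRG.4573.1, named after its values were seen, had 130, 79 and 124 counts in Sham, 760, 680 and 598 in I/R and 350, 464 and 132 in I/R + DEX. The 2035 loci thus do not count as that many separate observations. Whether neighbouring rows belong to 1 longer transcript or share a host gene was not tested.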

How the data were processed

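Total RNA libraries of rat cerebral cortex were sequenced by the authors, who deposited 1 table of raw counts per transcript for 9 libraries. The submitters' processing notes name STAR 2.5.3a, StringTie 1.3.1 and the build rn6, whereas the study's methods name Trimmomatic, CLC Genomics Workbench and a mouse build. Which of them made the deposited counts, and how reads were divided among transcripts of a locus, is not given in the sources used here. Predicted lncRNA were kept by the authors after coding potential tests. The table gives no positions, lengths or sequences.

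Counts were analysed as deposited in R 4.3.3. Rows were filtered with filterByExpr of edgeR 4.0.16 at its defaults (minimum count 10, minimum total 15), scaled by TMM, and tested over the whole table with edgeR's quasi-likelihood test for each pair of groups (3 against 3 libraries) and Benjamini-Hochberg adjustment. A locus was called at an adjusted p under 0.05, or at the study's cutoff of an unadjusted p under 0.05 and a log2 fold change beyond 0.8. An exact permutation test of 3 against 3 libraries cannot go below p = 0.1 and was not used. Alternatives were DESeq2 1.42.0, limma 3.58.1 (voom with sample weights), other scalings and filters, thinning, sums by locus, a replicate block and leaving out each library. Scripts were tested on simulated data. No column belonged to other samples, and no 2 libraries of the same group were alike within sampling noise.

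The single-row loci and the rules were chosen with earlier results of these data known. Loci named are the 10 most abundant; the 5 largest adjusted, non-overlapping increases and decreases of I/R against Sham at a mean of at least 1 CPM; the 4 in each direction with the smallest p of I/R + DEX against I/R past the cutoff; by the same conditions the 3 largest in each direction of I/R + DEX against Sham; up to 4 of the study's reversed lncRNA; and the 4 with the smallest coefficient of variation at a mean of at least 10 CPM. Depth ranged from 21691473 to 36039743 counts.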

Additional observations from a re-analysis of the deposited data

How the results depend on the processing

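In I/R against Sham no count of called single-row loci moved by over 1.5 times under any alternative run. Of 316 refits of the named calls 296 kept their call, 20 lost it and none changed direction. A locus removed by the filter of a run had no refit there. With at least 10 counts in every library this held for MSTRG.5406.1, MSTRG.10468.1, MSTRG.18175.1, MSTRG.6773.1, MSTRG.605.1, MSTRG.6968.1 and MSTRG.6977.1 in I/R against Sham. For treated against untreated rats 165 of 185 kept it and 20 lost it, and for treated rats against Sham 140 of 167 kept it and 27 lost it. Calls lost under other alternatives than those named in the report were MSTRG.20114.2 in I/R against Sham with library totals, without a filter and with the block, and MSTRG.11540.1 with the block; MSTRG.5922.1 with library totals and the block and MSTRG.319.1 with limma-voom and the block for treated against untreated rats; and for treated rats against Sham MSTRG.9497.1 with library totals, without a filter and with the block, and MSTRG.13941.1, MSTRG.10468.1 and MSTRG.5618.1 with the block. For treated against untreated rats the cutoff gave 6 loci higher and 59 lower with library totals, 14 higher without a filter, 13 higher with DESeq2, 58 higher and 91 lower with limma-voom, 16 higher with all 9 libraries in 1 fit and 15 lower at a log2 fold change beyond 1. Over all rows the cutoff gave 0.773% higher and 1.9% lower with library totals and 3.54% and 4.7% with limma-voom. Leaving out 1 library gave 8 to 86 higher and 9 to 92 lower, beside 0.961% to 3.2% and 0.742% to 4.1% of all rows. DESeq2's adjusted test called 1 higher and 7 lower. Between treated rats and Sham the adjusted counts were 175 and 692 with DESeq2, 163 and 703 with limma-voom and 159 higher with all 9 libraries in 1 fit. Over all rows 32.4% were called with DESeq2 and 32.8% with limma-voom, beside 45.7% and 45.6% of the tested loci. Leaving out 1 library gave 17 to 125 higher and 62 to 577 lower. Together these were 4.1% to 35.7% of the tested loci, beside 2.97% to 23% of all rows. The cause of these differences was not tested.

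No pairing of rats by replicate number is stated in the sources used here. Deviations from the group mean were correlated between libraries, over all rows with at least 10 counts in every library. With the same number they lay between -0.0954 and -0.002 for Sham and I/R, -0.526 and 0.00142 for I/R and I/R + DEX, and 0.02 and 0.0879 for Sham and I/R + DEX. With different numbers they lay between -0.0799 and 0.0829, -0.398 and 0.568, and -0.0812 and 0.0203 in the same order. With a replicate block 221 loci were higher and 635 lower in I/R against Sham at the adjusted p. Together these were 44.8% of the tested loci, beside 31.3% of all rows. Between treated and untreated rats 6 (0.316%) and 16 (0.843%) passed the cutoff, beside 0.77% and 0.712% of all rows. Between treated rats and Sham 43 and 176 passed the adjusted test, together 11.5% of the tested loci beside 7.19% of all rows.

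Single-row loci held 66.2%, 67.8% and 68.4% of predicted lncRNA counts in Sham, I/R and treated rats, and 7.02%, 3.93% and 3.56% of all counts without the 10 most abundant loci. At least 10 counts were found at 1850, 1877 and 1872 loci, and more than 3 after thinning at 1911, 1919 and 1911. Library totals in place of TMM moved the median log2 fold change of all rows for treated against untreated rats from 0.01 to -0.10.

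Values that changed sign belonged to differences that were not called. In I/R against Sham MSTRG.20203.1 came to 0.019 with at least 10 counts in every library, 6.2e-05 with limma-voom and -0.024 to 0.0081 when 1 library was left out, and MSTRG.11666.8 to -0.14 to 0.0028 when 1 was left out. For treated against untreated rats MSTRG.8243.1 came to 0.0014 both with RLE size factors and with DESeq2 and to 0.24 with limma-voom, and MSTRG.353.1 to -0.037 with library totals. With 1 library left out the ranges were -0.34 to 0.42 for MSTRG.8243.1, -0.030 to 0.13 for MSTRG.353.1, -0.079 to 0.97 for MSTRG.17002.1, -0.22 to 0.66 for MSTRG.9291.1, -0.31 to 1.07 for MSTRG.13941.1, -0.30 to 0.67 for MSTRG.18555.2, -0.47 to 0.013 for MSTRG.11540.1, -0.41 to 0.18 for MSTRG.5610.2, -0.51 to 0.076 for MSTRG.5615.3 and -0.44 to 0.0019 for MSTRG.20114.2. For treated rats against Sham MSTRG.11666.8 came to -0.017 with library totals, and MSTRG.353.1 to 0.000601 after thinning and -0.13 to 0.0038 when 1 library was left out.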
